A study of Mus musculus with 6 samples.

Results

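The mammalian respiratory chain is built from subunits of 2 genomes, and both sets were followed here in mouse hippocampus after knockdown of hepaCAM, a cell adhesion molecule of astrocytes. The members were all protein-coding genes whose symbol begins with mt-Nd, mt-Co, mt-Atp, mt-Cytb, Ndufa, Ndufb, Ndufc, Ndufs, Ndufv, Uqcr, Cox4 to Cox8 or Atp5, together with Sdha, Sdhb, Sdhc, Sdhd and Cyc1. This gave 106 of the 29872 genes in the deposited files, 13 encoded in mitochondrial DNA and 93 in the nucleus. The rule used names only and no measured value. It also takes in Ndufaf genes, which encode assembly factors of complex I, and Atp5s, which is no core subunit of the ATP synthase, and these are kept apart below.

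RNA sequencing of hippocampus of C57BL/6J mice gave 6 libraries. In the shHepaCAM group (3 libraries), an adeno-associated virus, a gene delivery vector, was delivered to CA1, a field of the hippocampus, in both hemispheres, with a short hairpin RNA against Hepacam. The shControl group (3 libraries) is labelled as wild type, and the labels do not say whether these mice were given a vector, nor the age of either group. Nothing in them ties a library to a mouse of its own, so the p-values rest on the variation among these 6 libraries, and that variation may be technical. Whole tissue was sequenced, so fewer cells of a type and less RNA per cell cannot be told apart.

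Complexes I, III and IV pass electrons from NADH to oxygen and pump protons, complex II feeds in electrons from succinate, and complex V, the ATP synthase, uses the proton gradient to make ATP. Complex II is wholly nuclear encoded, whereas the core of the proton-pumping complexes and the membrane part of the ATP synthase come partly from mitochondrial DNA. This DNA is transcribed as long precursors that are cut into messengers. Neurons depend heavily on this pathway. The nuclear genome also holds old copies of mitochondrial DNA, some of them nearly identical to the original.

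Such copies matter for reading the mitochondrial values, and the first 60 bases of 2 mitochondrial transcripts are shown beside their nuclear pseudogenes to make the point (GENCODE M21 transcripts, 5′ to 3′, with differing bases in capitals).
mt-Co2: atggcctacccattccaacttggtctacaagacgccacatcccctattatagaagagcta
Gm28661: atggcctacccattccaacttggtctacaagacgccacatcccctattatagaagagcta
mt-Co1: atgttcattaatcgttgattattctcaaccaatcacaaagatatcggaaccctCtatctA
Gm13340: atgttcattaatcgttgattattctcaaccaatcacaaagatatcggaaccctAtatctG
Gm28661, on chromosome 1, matched mt-Co2 without a mismatch over 681 bases, so a short read from either could not be assigned. Gm13340, on chromosome 2, matched mt-Co1 over 1545 bases at 97.6% identity, with 2 differing bases in the stretch shown.

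These matches divide the mitochondrial genes by level. Values are RPKM, reads scaled by exon length and library depth. For the mitochondrial genes this length is that of the transcript, so the scaling by length does not bar a comparison of their levels. For some nuclear genes the annotated exons are far longer than the longest coding transcript, so their levels compare only roughly between genes. The 7 genes mt-Co1, mt-Cytb, mt-Nd1, mt-Nd2, mt-Nd5, mt-Nd4 and mt-Nd6 had over 1000 RPKM in every library. mt-Co1, the catalytic subunit of complex IV, was the highest, at 13391, 12010 and 13048 RPKM in shHepaCAM replicates 1, 2 and 3, against 13601, 14698 and 14066 RPKM in shControl replicates 1, 2 and 3. The other 6 lay far below, although they are cut from the same precursors. mt-Co2 averaged 118 ± 13.8 RPKM in shHepaCAM and 129 ± 15.4 RPKM in shControl (SD, n = 3 each), and mt-Co3 averaged 46.7 ± 4.33 RPKM in shHepaCAM and 55.2 ± 11.3 RPKM in shControl (SD, n = 3 each). Over all 6 libraries, mt-Atp6 had a mean of 43.4 RPKM, mt-Nd3 of 11.4 RPKM, mt-Nd4l of 8.05 RPKM and mt-Atp8 of 4.16 RPKM.

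Apart from mt-Atp8, the low genes were those with an annotated copy over almost their whole length. At 99% identity or more, another annotated gene covered 99.9% of mt-Co3 (Gm28437), 99.6% of mt-Co2 (Gm28661), 99.6% of mt-Atp6 (Gm10925), 99.1% of mt-Nd3 (Gm28438) and 98.99% of mt-Nd4l (Gm10222), all with the copy on chromosome 1. Coverage was 63.6% for mt-Nd4, 31.3% for mt-Co1 and 0% for mt-Cytb, mt-Nd1, mt-Nd2, mt-Nd5 and mt-Nd6. These 5 copies were themselves counted, at means over the 6 libraries of 7.98 RPKM (Gm28438) to 157 RPKM (Gm28661). Gm28661 had 125, 92.1 and 143 RPKM in the shHepaCAM libraries, against 282, 190 and 110 RPKM in the shControl libraries. mt-Atp8, the small subunit between mt-Co2 and mt-Atp6, had no annotated copy of 100 bases or more, and it shares 43 bases with mt-Atp6. The treatment of reads with several matching places is not stated in the labels, so the levels of these 6 genes are uncertain.

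**Figure D1:**
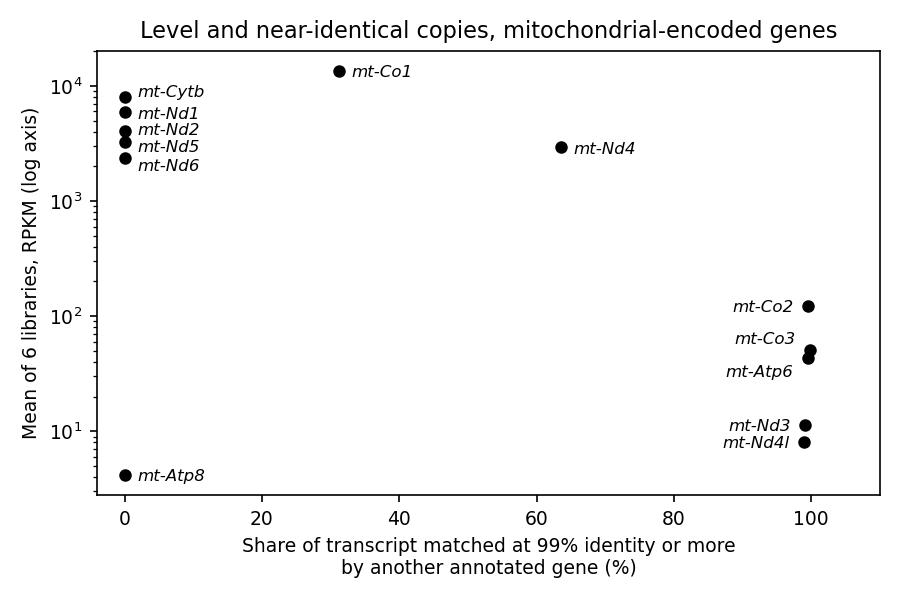
Mean RPKM over the 6 libraries (log axis) against the share of each transcript that another annotated gene matches at 99% identity or more (percent), 1 point per mitochondrial-encoded gene. The 5 genes with 98.99% to 99.9% coverage lie below 1000 RPKM, the genes with 0% to 63.6% coverage above it, and mt-Atp8 alone is low with 0%.

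The nuclear-encoded subunits all lay below the 7 abundant mitochondrial genes, and some lay above the 6 low ones. The highest was Cox6a1, a complex IV subunit, at 694, 533 and 672 RPKM in the shHepaCAM libraries, against 664, 755 and 736 RPKM in the shControl libraries. Cox7b2 was the lowest, with 0, 3 and 2 reads in the shHepaCAM libraries and 3, 3 and 5 reads in the shControl libraries. It was the one member below a mean of 1 RPKM over all libraries, so 105 of the 106 members were tested. Another annotated gene covered more than 50% of the longest coding transcript at 99% identity in 1 of 93 nuclear members, Atp5l (72.2%). Its mean of 2.55 RPKM came from 238 to 300 reads per library, scaled to 6443 annotated exon bases. The transcript itself has 544 bases, so this level is low partly through the scaling. Shares just under that cut were 46.9% for Ndufs5, 45.1% for Cox5b and 42.0% for Cox5a. A long transcript also keeps the share small. Ndufab1 had 13.5% of 3479 bases, although Ndufab1-ps matched 469 of them at 99.4% identity. The levels of such nuclear members are thus uncertain as well.

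Hepacam (ENSMUSG00000046240) itself was at 24.4, 22.6 and 20.9 RPKM in the shHepaCAM libraries, against 37.3, 33.4 and 35.9 RPKM in the shControl libraries, so the libraries carried the labelled knockdown. In limma on log2(RPKM + 1) over the 13864 genes that averaged 1 RPKM or more, it fell by 0.63 (SE 0.07, adjusted p = 0.00924, and 0.0526 without shControl replicate 3). Between 14903198 and 17341842 reads stood behind each library. The microglial marker list was higher in knockdown hippocampus, with a summed level of 764, 768 and 905 RPKM in the shHepaCAM libraries and 475, 421 and 408 RPKM in the shControl libraries. Of its 10 genes, 7 were called higher (adjusted p under 0.05 in limma), beside 4.23% of all genes. None of the 10 had a log2 change below 0. Choroid plexus transcripts, summed over 10 markers, were at 2362, 1723 and 32.7 RPKM in the shHepaCAM libraries and 71.8, 4343 and 3726 RPKM in the shControl libraries, so shHepaCAM replicate 3 and shControl replicate 1 stood apart from the rest.

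Mitochondrial-encoded transcripts took a smaller share of reads in knockdown hippocampus, and the nuclear-encoded ones showed this in 1 library only. The 13 mitochondrial genes took 5.03%, 4.45% and 4.94% of reads in shHepaCAM replicates 1, 2 and 3, against 5.20%, 5.76% and 5.34% in shControl replicates 1, 2 and 3. The groups did not overlap, and the mean was 4.81 ± 0.316% in shHepaCAM and 5.43 ± 0.295% in shControl (SD, n = 3 each), a relative difference of -11.5%. The 93 nuclear genes took 0.956%, 0.831% and 0.948% of reads in the shHepaCAM libraries, against 0.952%, 0.977% and 0.964% in the shControl libraries. Here shHepaCAM replicate 2 was low and the other 5 libraries lay together. Without that library the relative difference was -8.21% for the mitochondrial genes and -1.29% for the nuclear genes. The ratio of the summed RPKM of mitochondrial over nuclear members was 6.36, 6.58 and 6.30 in the shHepaCAM libraries. It was 6.58, 7.07 and 6.63 in the shControl libraries. The groups overlapped narrowly in this ratio, since shHepaCAM replicate 2 (6.583) lay just above shControl replicate 1 (6.581).

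**Figure D2:**
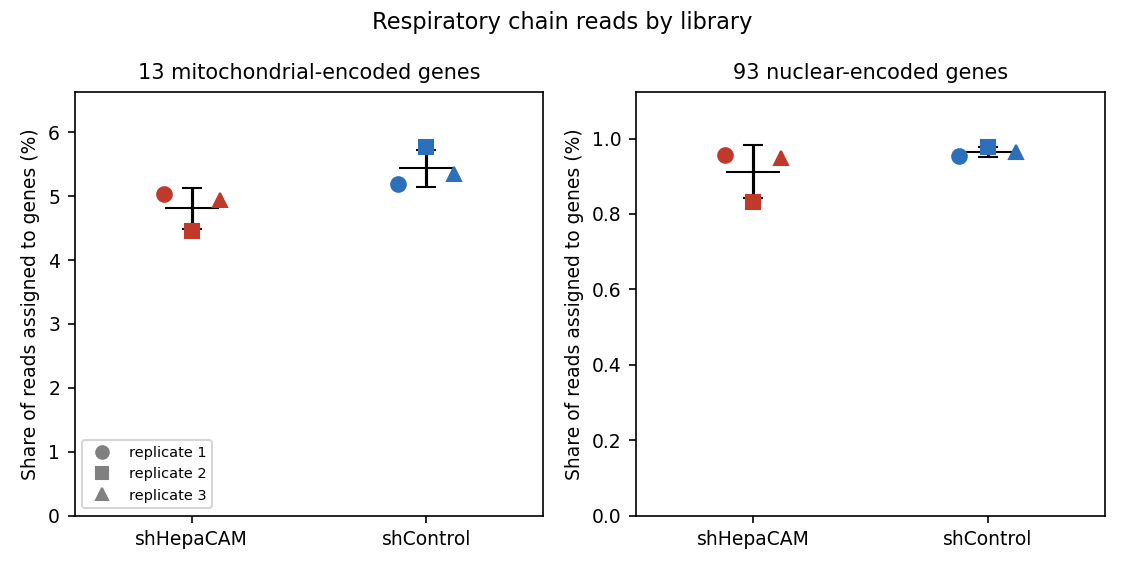
Share of the reads assigned to genes (percent) taken by the 13 mitochondrial-encoded (left) and 93 nuclear-encoded (right) respiratory chain genes, 1 point per library, with the mean and SD of each group of 3. Mitochondrial shares run from 4.45% to 5.03% in shHepaCAM and from 5.20% to 5.76% in shControl, while on the right only shHepaCAM replicate 2, at 0.831%, lies apart.

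Across the members tested, 1 of 105 was called lower in knockdown hippocampus and 0 were called higher, at an adjusted p under 0.05 in limma. Over all genes tested, 1.84% were called lower and 4.23% higher, 6.07% in all. Of the members, 8 were lower and 1 was higher at an unadjusted p under 0.05, against 7.92% of all genes lower and 16.3% higher. The log2 change was below 0 in 85 of the 105 members, against 39.6% of all genes tested, whose median was 0.05. All 3 shHepaCAM libraries lay below all 3 shControl libraries for 19 members, against 10.7% of all genes, and above them for 1 member, against 20.9% of all genes. The members were thus placed towards lower values as a group, with 1 call.

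All 13 mitochondrial-encoded genes had a log2 change below 0, and none was called. The median was -0.21, with a range of -0.55 to -0.12, and the smallest adjusted p in limma was 0.178. With quantile normalization 6 of 13 were below 0, and these were the low genes. That scaling gives the highest genes of every library equal values, so it can hide a shared fall of the abundant ones. The groups did not overlap for 5 genes, all of them among the 7 abundant ones (mt-Nd1, mt-Nd2, mt-Nd5, mt-Cytb and mt-Co1). With shHepaCAM replicate 2 left out, the median was -0.14 and all 13 were still below 0. With shControl replicate 2 left out, which had the highest mitochondrial share, it was -0.11 and 11 of 13 were below 0. Without the 2 libraries low in choroid plexus transcripts it was -0.28, and the median of the nuclear members was -0.12.

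Among the 7 mitochondrial subunits of complex I, mt-Nd5, a large proton-pumping subunit, came nearest to a call. It stood at 3025, 2742 and 3145 RPKM in the shHepaCAM libraries, against 3485, 3671 and 3521 RPKM in the shControl libraries, with a log2 change of -0.26 (SE 0.10, adjusted p = 0.178 in limma). Limma-voom on the reads recovered from the RPKM values gave an adjusted p of 0.0480, on the other side of the threshold, in a fit that called 2.38% of all genes lower. mt-Nd1 stood at 5758, 4981 and 5603 RPKM in the shHepaCAM libraries, against 5854, 6813 and 6204 RPKM in the shControl libraries. The gap between the groups was narrow for this gene, since shHepaCAM replicate 1 lay just under shControl replicate 1. mt-Nd2 stood at 3966, 3360 and 3928 RPKM in the shHepaCAM libraries, against 4180, 4816 and 4191 RPKM in the shControl libraries, again with shHepaCAM replicate 2 the lowest and shControl replicate 2 the highest.

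mt-Nd4 and mt-Nd6 overlapped between groups. mt-Nd4 stood at 2829, 2598 and 2804 RPKM in the shHepaCAM libraries, against 2791, 3460 and 3056 RPKM in the shControl libraries. mt-Nd6, which lies on the strand opposite to the other subunit genes, stood at 2331, 2014 and 2263 RPKM in the shHepaCAM libraries, against 2256, 2635 and 2580 RPKM in the shControl libraries. No strand setting is stated in the labels, so reads from mt-Nd6 and from RNA of the opposite strand cannot be told apart. The low genes mt-Nd3 and mt-Nd4l rested on 51 to 87 and on 23 to 66 reads per library, and both overlapped between groups.

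In complexes III and IV, mt-Cytb, the cytochrome b of complex III, stood at 8072, 6916 and 7791 RPKM in the shHepaCAM libraries, against 8270, 9083 and 8118 RPKM in the shControl libraries. Its log2 change was -0.16 (SE 0.13, adjusted p = 0.497 in limma). That of mt-Co1 was -0.14, of mt-Co2 -0.13 and of mt-Co3 -0.22, with adjusted p-values in limma of 0.373 to 0.589. The differences of mt-Cytb and mt-Co1 were of the order of their standard errors.

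The largest mitochondrial log2 differences were those of the 2 ATP synthase genes, and these were the least certain. mt-Atp6, the proton channel subunit, stood at 39.4, 28.2 and 36.2 RPKM in the shHepaCAM libraries, against 72.4, 49.9 and 34.3 RPKM in the shControl libraries, with a log2 change of -0.53 (SE 0.25, adjusted p = 0.254 in limma). The shControl libraries spread over a wider range than the difference between the means. mt-Atp8 rested on 7, 6 and 9 reads in the shHepaCAM libraries and on 8, 53 and 3 reads in the shControl libraries, and without shControl replicate 2 its log2 change was 0.33.

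**Figure D3:**
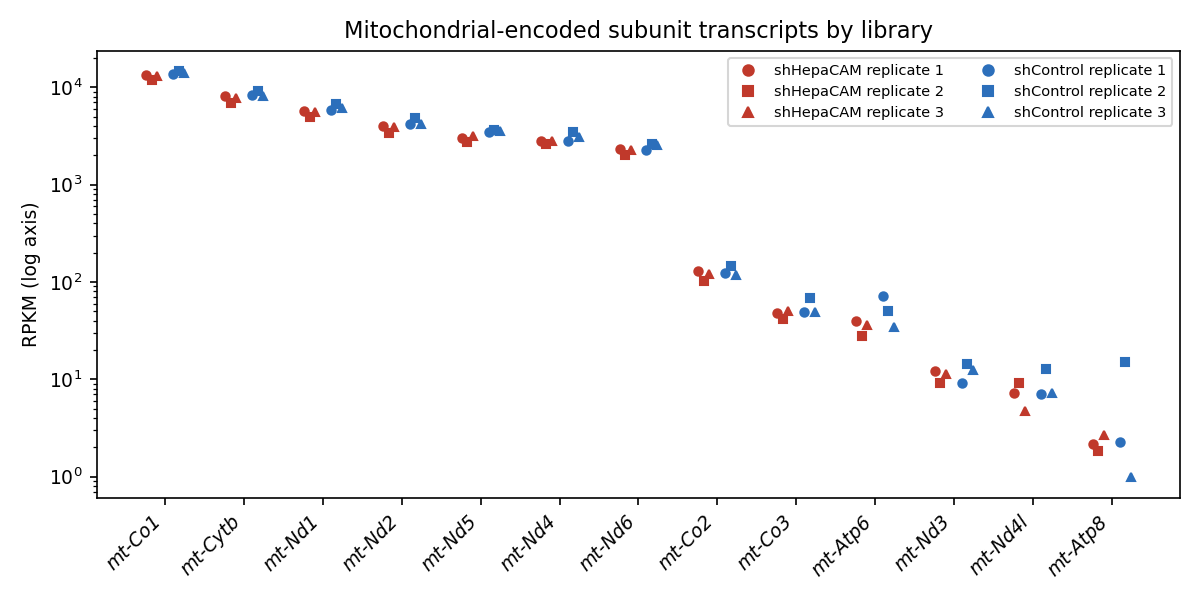
RPKM (log axis) of the 13 mitochondrial-encoded genes in each library, with shHepaCAM in red to the left of shControl in blue and a marker shape for each replicate number. The 7 abundant genes lie between 2014 and 14698 RPKM and the low ones between 0.987 and 146 RPKM, with shHepaCAM replicate 2 the lowest of the 6 libraries in 10 of 13 genes.

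The 1 call was Ndufa10 (ENSMUSG00000026260), an accessory subunit of complex I. Its level was 29.5, 22.1 and 23.0 RPKM in the shHepaCAM libraries, against 38.3, 39.5 and 41.8 RPKM in the shControl libraries, so that the groups were well apart. The means were 24.9 ± 4.06 RPKM in shHepaCAM and 39.8 ± 1.75 RPKM in shControl (SD, n = 3 each), 37.6% lower in knockdown hippocampus. Its log2 change was -0.67 (SE 0.11, adjusted p = 0.0206 in limma). The difference kept its direction in every alternative run, with log2 changes of -0.79 to -0.59, but the call was lost in 9 of 20, with adjusted p-values of 0.00531 to 0.109 over all of them. Between 1188 and 2279 reads per library stood behind it. Leaving out shHepaCAM replicate 2 gave an adjusted p of 0.0526 in limma, and leaving out shHepaCAM replicate 3 gave 0.0597. Leaving out 1 shControl library gave 0.0601 (replicate 1), 0.0840 (replicate 2) or 0.0950 (replicate 3).

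Among the 36 nuclear-encoded subunits of complex I, 30 had a log2 change below 0, with a median of -0.07, and all but Ndufa10 were uncalled. The next by p, named here after their values were seen, were Ndufa1 and Ndufb6, both accessory subunits. Ndufa1 stood at 75.9, 69.1 and 76.3 RPKM in the shHepaCAM libraries, against 86.6, 97.7 and 84.2 RPKM in the shControl libraries, with a log2 change of -0.27 (SE 0.08, adjusted p = 0.0824 in limma). Ndufb6 stood at 49.9, 39.9 and 48.9 RPKM in the shHepaCAM libraries, against 56.7, 55.0 and 59.8 RPKM in the shControl libraries, with a log2 change of -0.31 (SE 0.09, adjusted p = 0.101 in limma). Ndufb6 shares 257 bases with Smim27 on the opposite strand, which had a mean of 0.0688 RPKM. Ndufb9, the highest nuclear gene of the complex, stood at 154, 133 and 154 RPKM in the shHepaCAM libraries, against 155, 152 and 162 RPKM in the shControl libraries, and overlapped. With shHepaCAM replicate 2 left out, the median of complex I was 0.00 and 18 of 36 were below 0. Without a GC and length correction, the lean of this complex thus rested on that library.

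The nuclear genes of complexes II and III had medians of -0.01 and -0.03, nearest to 0 of the 5 complexes. Sdha, the flavoprotein of succinate dehydrogenase, stood at 106, 98.98 and 108 RPKM in the shHepaCAM libraries, against 110, 103 and 103 RPKM in the shControl libraries (log2 change -0.02, SE 0.06). The log2 change was 0.08 for Sdhb, the iron-sulphur subunit, and 0.01 and -0.18 for the membrane anchors Sdhc and Sdhd. Sdhd alone did not overlap, at 47.3, 38.1 and 49.7 RPKM in the shHepaCAM libraries, against 51.4, 51.5 and 50.04 RPKM in the shControl libraries, with replicate 2 again the lowest. In complex III, Uqcrfs1, the Rieske iron-sulphur protein, had a log2 change of 0.12 (SE 0.06) and Cyc1, cytochrome c1, one of 0.06 (SE 0.08), while Uqcrh had -0.12 (SE 0.08) and Uqcrc1, a core subunit, -0.11 (SE 0.07). The summed nuclear RPKM of complex III was 718, 603 and 704 in the shHepaCAM libraries and 674, 683 and 686 in the shControl libraries. It differed by -0.857% between the means, and by 4.43% without shHepaCAM replicate 2. None of these genes was called, the smallest adjusted p in limma being 0.298 in complex II and 0.274 in complex III.

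Complex IV had the widest spread of log2 changes, from -0.83 to 0.80, with isoforms of tissues other than brain at both ends. Of its 18 nuclear genes tested, 15 had a log2 change below 0, with a median of -0.14, and none was called. Without shHepaCAM replicate 2 the median was -0.065, with 12 below 0. The nearest was Cox6b1, the common form of subunit 6b, at 129, 113 and 128 RPKM in the shHepaCAM libraries, against 143, 148 and 144 RPKM in the shControl libraries. Its log2 change was -0.23 (SE 0.07, adjusted p = 0.0954 in limma), and it was called with quantile normalization (adjusted p = 0.0318) and with a GC and length trend removed (adjusted p = 0.0278). Quantile normalization called 2.46% of all genes lower and 2.81% higher, and removal of the trend called 2.72% lower. Its paralog Cox6b2, known as a testis isoform, was the only member with all shHepaCAM libraries above all shControl libraries. It stood at 9.24, 10.6 and 12.1 RPKM in the shHepaCAM libraries, against 3.22, 7.55 and 7.21 RPKM in the shControl libraries (log2 change 0.80, SE 0.26, adjusted p = 0.123 in limma). Without the 2 libraries low in choroid plexus transcripts, the log2 change of Cox6b2 was 0.38. The 2 paralogs thus lay on opposite sides of 0, both uncalled.

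The other isoform groups were led by their widely expressed forms. Cox6a1 was far above the muscle form Cox6a2, at 633 ± 87.0 RPKM against 4.65 ± 0.406 RPKM within shHepaCAM and at 718 ± 48.2 RPKM against 3.84 ± 0.634 RPKM within shControl (SD, n = 3 each). Cox4i1 averaged 114 ± 13.5 RPKM in shHepaCAM and 119 ± 2.17 RPKM in shControl, whereas Cox4i2, a form known from lung, averaged 1.21 ± 0.379 RPKM in shHepaCAM and 1.84 ± 1.10 RPKM in shControl (SD, n = 3 each). Cox8a averaged 409 ± 51.3 RPKM in shHepaCAM and 472 ± 24.8 RPKM in shControl (SD, n = 3 each). The muscle form Cox8b stood at 2.99, 1.205 and 0.339 RPKM in the shHepaCAM libraries, against 0.649, 6.89 and 4.10 RPKM in the shControl libraries. Cox4i2 and Cox8b were thus lowest in shHepaCAM replicate 3 and shControl replicate 1, the 2 libraries low in choroid plexus transcripts. The part of choroid plexus in these values was not tested. Striated muscle and brown fat markers stayed low in all libraries, with a sum of 10.1 to 11.6 RPKM in shHepaCAM and 8.38 to 9.82 RPKM in shControl over 8 genes.

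Cox7a2, the common form of subunit 7a, averaged 66.4 ± 7.11 RPKM in shHepaCAM and 72.7 ± 4.43 RPKM in shControl, and the muscle form Cox7a1 averaged 2.79 ± 0.151 RPKM in shHepaCAM and 3.09 ± 0.973 RPKM in shControl (SD, n = 3 each). Cox7a2l, which takes part in joining complexes III and IV, averaged 111 ± 10.2 RPKM in shHepaCAM and 126 ± 7.09 RPKM in shControl (SD, n = 3 each). Ndufa4, named for complex I but now assigned to complex IV, stood at 98.9, 77.2 and 101 RPKM in the shHepaCAM libraries, against 104, 110 and 110 RPKM in the shControl libraries, and did not overlap. Its paralog Ndufa4l2 had a log2 change of 0.04 (SE 0.17). No form in these groups passed the threshold.

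The ATP synthase genes showed small differences. Its 16 nuclear members had a median log2 change of -0.08, with 13 below 0 and 0 called. Without shHepaCAM replicate 2 the median was -0.02, with 12 below 0. Atp5a1, which encodes the alpha subunit of the catalytic head and was the highest gene of the complex, stood at 269, 246 and 265 RPKM in the shHepaCAM libraries, against 266, 268 and 270 RPKM in the shControl libraries. The c-ring subunit is encoded by 3 genes that give the same mature protein. Atp5g3, the highest of these, stood at 72.3, 64.6 and 76.6 RPKM in the shHepaCAM libraries, against 79.0, 81.0 and 82.4 RPKM in the shControl libraries, with a log2 change of -0.18 (SE 0.07, adjusted p = 0.178 in limma). Atp5g1 had a log2 change of -0.20 (SE 0.09) and Atp5g2 of 0.06 (SE 0.07), so the c-ring genes did not all lie on the same side of 0. Atp5o, a stalk subunit, did not overlap between groups and had a log2 change of -0.13 (SE 0.07). Of the 9 assembly and other genes, 6 lay below 0 and none was called. Atp5s, a coupling factor, stood at 7.22, 6.69 and 7.63 RPKM in the shHepaCAM libraries, against 9.14, 7.81 and 8.33 RPKM in the shControl libraries (log2 change -0.20, SE 0.08), and Ndufaf3, an assembly factor of complex I, had a log2 change of -0.24 (SE 0.11).

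**Figure D4:**
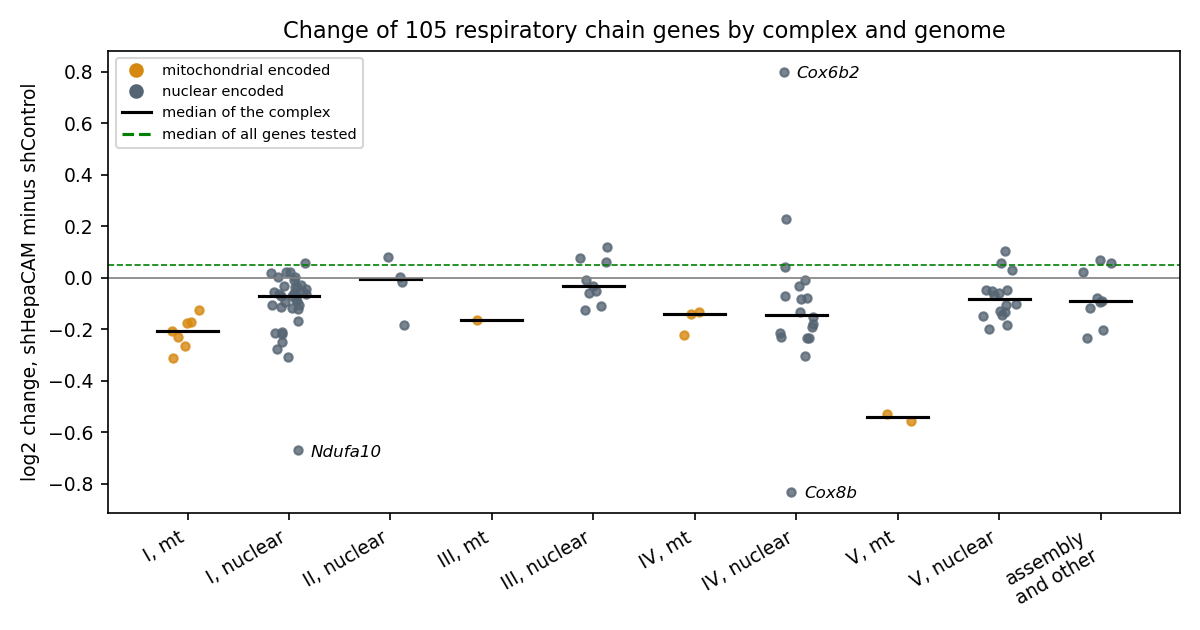
Log2 change on the log2(RPKM + 1) scale (shHepaCAM minus shControl) of the 105 members tested, 1 point per gene, grouped by complex and genome, with the median of each set as a black bar and that of all genes tested (0.05) as a dashed line. The mitochondrial sets lie wholly below 0 on this scale. With quantile normalization, which gives the highest genes of every library equal values, 6 of 13 mitochondrial genes lie below 0. The nuclear sets have medians between -0.14 and -0.01, and Ndufa10 (-0.67), Cox6b2 (0.80) and Cox8b (-0.83) lie apart.

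On log2(RPKM + 1) without further scaling, a single library carried most of the lean of the nuclear-encoded members. shHepaCAM replicate 2 was the lowest of the 6 libraries in 68 of 92 nuclear members tested, and in 78 of all 105 members, against 18.1% of all genes. The median deviation of the nuclear members from their mean over the 6 libraries was 0.03, -0.18 and 0.04 in shHepaCAM replicates 1, 2 and 3, and 0.02, 0.06 and 0.04 in shControl replicates 1, 2 and 3, on the log2 scale. Over all genes tested, the median deviations were 0.012, 0.059 and 0.007 in the shHepaCAM libraries. They were -0.014, -0.028 and -0.026 in the shControl libraries, so the median gene leaned the other way. With shHepaCAM replicate 2 left out, 51 of 92 nuclear members were below 0 with a median of -0.01, beside 42.9% of all genes. Scaling of each library to its median gene put 88 nuclear members below 0, beside 55.5% of all genes, scaling to nuclear genes only put 75, beside 42.5%, and removal of the GC and length trend put 87, beside 52.1%. With that trend removed, the nuclear median deviations were -0.027, -0.215 and -0.004 in the shHepaCAM libraries, against 0.073, 0.091 and 0.087 in the shControl libraries. The groups then did not overlap, with shHepaCAM replicate 2 still the lowest. The mitochondrial members differed from the nuclear ones most in shControl replicate 2, with or without that correction. Without it, their median deviations were -0.03, -0.24 and -0.05 in the shHepaCAM libraries and 0.00, 0.25 and 0.05 in the shControl libraries. With it, they were -0.083, -0.244 and -0.089 in the shHepaCAM libraries and 0.048, 0.230 and 0.108 in the shControl libraries.

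**Figure D5:**
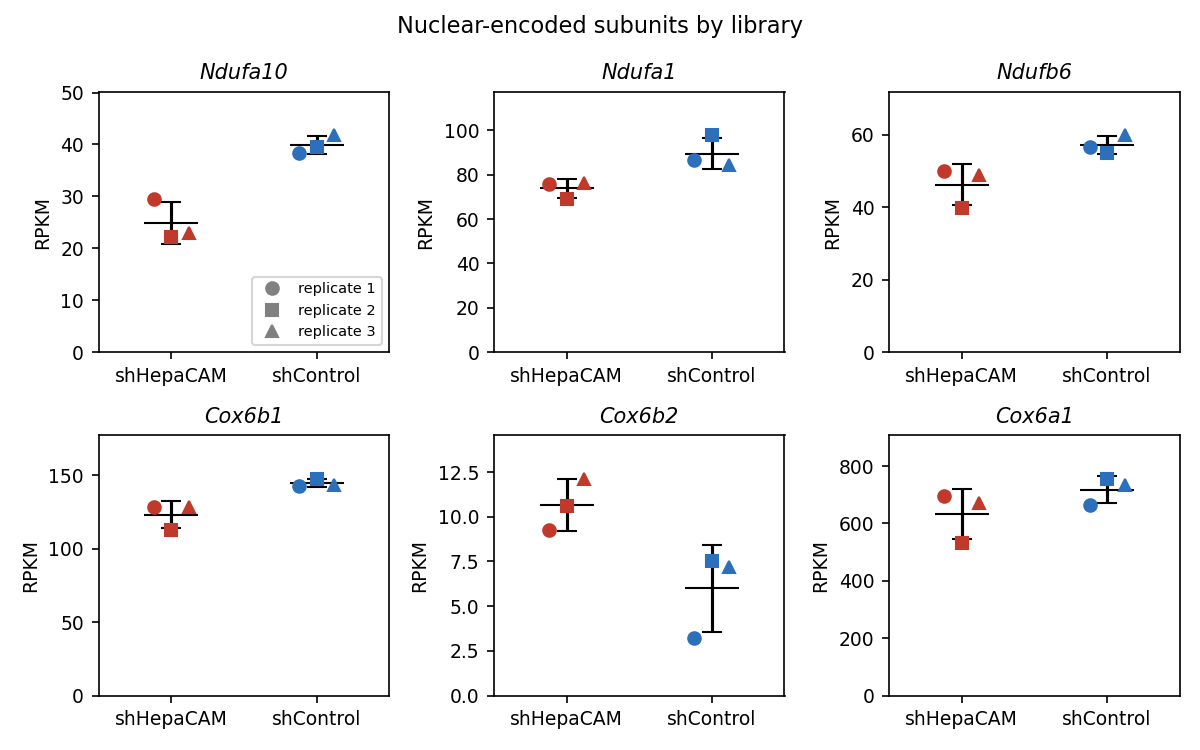
RPKM of 6 nuclear-encoded subunits in each library, 1 point per library with a marker shape for each replicate number, and the mean and SD of each group of 3. Ndufa10 lies at 22.1 to 29.5 RPKM in shHepaCAM and 38.3 to 41.8 RPKM in shControl, Cox6b2 is higher in shHepaCAM, and shHepaCAM replicate 2 is the lowest point for Ndufa10, Ndufa1, Ndufb6, Cox6b1 and Cox6a1.

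Some other quantities also stood apart in shHepaCAM replicate 2, and others did not. The summed level of 10 pan-neuronal markers was 1061, 880 and 1049 RPKM in the shHepaCAM libraries and 1170, 1153 and 1171 RPKM in the shControl libraries, and 2 of the 10 fell, Snap25 and Tubb3 (adjusted p = 0.0441 and 0.0424 in limma), beside 1.84% of all genes. The other 8 were not called, with Rbfox3, Thy1 and Nefm above 0. Of 9 markers of CA1, CA3 and dentate neurons, 1 was called lower, the median log2 change was 0.06, and shHepaCAM replicate 2 was the lowest library for 2. That library had the highest sums of the oligodendrocyte markers (1303, 1451 and 965 RPKM in the shHepaCAM libraries, 1090, 930 and 1162 RPKM in the shControl libraries) and of the endothelial and pericyte markers (51.2, 70.0 and 47.2 RPKM in the shHepaCAM libraries, 65.8, 62.5 and 50.5 RPKM in the shControl libraries). Plasma cell and B cell markers summed to 534, 1021 and 1857 RPKM in the shHepaCAM libraries and 23.7, 27.7 and 30.9 RPKM in the shControl libraries. The sum of 15 markers of the mitochondrial outer membrane, carriers and matrix was 954, 853 and 946 RPKM in the shHepaCAM libraries and 960, 962 and 956 RPKM in the shControl libraries, with replicate 2 the lowest in 10 of 15. The part of these cell types in the respiratory chain values was not tested, nor that of the higher microglial content. Non-members with under 1000 exon bases had a median log2 change of 0.08 and a median deviation of 0.03 in shHepaCAM replicate 2, while the 22 nuclear members of that length had -0.14 and -0.23. Removal of the GC and length trend gave a nuclear median of -0.16, and the part of length and GC content was not tested further.

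The contrast between the genomes kept its sign when single libraries were left out, but its size depended on them. The median log2 change of the mitochondrial members minus that of the nuclear members was -0.14, and it was -0.14 without shHepaCAM replicate 2 and -0.05 without shControl replicate 2. With quantile normalization it turned to 0.11. That scaling gives the highest genes of every library equal values, so it can hide a shared fall of the abundant mitochondrial genes. The spread of this difference between libraries of a group was 0.08 (pooled SD). It is given as a description, since the members within each genome share their libraries and, for the mitochondrial genes, their precursor transcripts.

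The promoters of the nuclear genes were read for motifs of factors known to drive respiratory chain genes. Promoters, 250 bases before to 50 bases after the start, were found in the RefSeq table (GRCm38.p6) for 75 of the 93 genes. The NRF1 motif (GCGCA, any base, then GCGC; both strands, as for the others) was in 24% of them, against 10.4% of 9990 promoters of genes tested and 4.78% of all 27025 promoters. The GABPA motif (CCGGAAG) was in 22.7%, against 17.6% of promoters of genes tested and 9.12% of all, and the YY1 motif (AAGATGG) in 14.7%, against 7.17% and 6.48%. The SP1 motif (GGGGCGGGG) was in 16% of member promoters, against 22.4% and 11.6%. Each motif was counted on its own, and overlap between motifs was not examined. The promoters of Ndufa10, the gene called lower, and Cox6a1, the highest nuclear gene, are shown with NRF1 and GABPA matches in capitals, from chr1:92473709-92474008 and chr5:115348909-115349208, both on the minus strand and written 5′ to 3′ along the gene.
Ndufa10: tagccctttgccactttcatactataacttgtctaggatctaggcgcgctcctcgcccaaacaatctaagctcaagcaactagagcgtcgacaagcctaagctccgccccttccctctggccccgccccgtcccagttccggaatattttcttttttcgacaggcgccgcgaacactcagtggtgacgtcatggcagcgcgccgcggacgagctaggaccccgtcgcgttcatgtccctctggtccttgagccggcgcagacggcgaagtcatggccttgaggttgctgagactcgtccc
Cox6a1: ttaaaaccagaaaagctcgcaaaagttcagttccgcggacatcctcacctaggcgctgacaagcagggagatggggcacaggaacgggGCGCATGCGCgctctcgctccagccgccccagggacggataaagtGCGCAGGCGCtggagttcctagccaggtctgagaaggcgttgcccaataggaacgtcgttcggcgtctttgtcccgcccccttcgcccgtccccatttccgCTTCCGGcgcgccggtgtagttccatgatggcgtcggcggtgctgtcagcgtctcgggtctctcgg
Cox6a1 held 2 NRF1 matches and 1 GABPA match on the reverse strand, and Ndufa10 held 1 SP1 match, left in lower case, and no match to the NRF1, GABPA or YY1 letters in this window. These matches are descriptions of the letters only.

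Of 151 other genes of the pathway tested, 2 were called lower and 1 higher, beside 1.84% and 4.23% of all genes, so the pathway held no more calls than the background and each is given as a single gene. Bcs1l, which inserts the Rieske protein into complex III and was 1 of 9 tested assembly factors of complexes II and III, fell to 7.18, 7.01 and 8.19 RPKM in the shHepaCAM libraries, against 11.1, 10.4 and 10.5 RPKM in the shControl libraries (log2 change -0.47, SE 0.07, adjusted p = 0.0202 in limma). Its client Uqcrfs1, by contrast, stood at 73.8, 68.0 and 72.4 RPKM in the shHepaCAM libraries, against 62.9, 66.0 and 68.2 RPKM in the shControl libraries. Vdac2, a porin of the outer membrane and 1 of 15 genes of the list named above, fell to 26.7, 21.4 and 22.9 RPKM in the shHepaCAM libraries, against 34.8, 33.2 and 33.7 RPKM in the shControl libraries (log2 change -0.51, SE 0.08, adjusted p = 0.0222 in limma). The third was Fgf21, a secreted factor known to be induced by mitochondrial and other cell stress, which entered the test only through its shHepaCAM values.

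Fgf21 was counted at 66, 26 and 50 reads in the shHepaCAM libraries, against 0, 1 and 0 reads in the shControl libraries. In RPKM this was 4.39, 1.69 and 3.21 in shHepaCAM and 0, 0.0606 and 0 in shControl, with a log2 change of 1.95 (SE 0.25). A gene that reaches a mean of 1 RPKM only through the group where it is high had to differ, so its adjusted p of 0.0102 in limma is not read as support. Scaled to depth, the summed reads had a ratio of 145. The 95% interval of 25.6 to 5766 covers counting error only and leaves out variation between libraries. For the same reason as the adjusted p, it is not read as support. Gdf15, another secreted stress factor, averaged 0.885 ± 0.205 RPKM in shHepaCAM and 0.270 ± 0.146 RPKM in shControl (SD, n = 3 each), without overlap, and was under the filter and not tested. It is named after its values were seen. In the same list of mitochondrial stress and uncoupling, Ucp2 had a log2 change of 0.57 (adjusted p = 0.165 in limma) and Sod2 one of -0.27 (adjusted p = 0.0871 in limma).

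The remaining lists held 0 calls. Assembly factors not named Nduf gave 0 of 11 for complex I, 0 of 19 for complex IV and 0 of 4 for the ATP synthase. Among 18 electron carriers and coenzyme Q enzymes, Coq5, a methyltransferase of coenzyme Q synthesis, stood at 8.75, 7.27 and 8.71 RPKM in the shHepaCAM libraries, against 10.2, 11.4 and 11.4 RPKM in the shControl libraries, with a log2 change of -0.38 just outside the threshold. Cycs, the electron carrier cytochrome c, stood at 27.8, 23.1 and 27.5 RPKM in the shHepaCAM libraries, against 33.7, 33.6 and 30.4 RPKM in the shControl libraries (log2 change -0.31, adjusted p = 0.0824 in limma). The genes that copy and transcribe mitochondrial DNA gave 0 of 17, with a median log2 change of 0.06. Tfam, which packages that DNA and starts its transcription, stood at 8.18, 9.09 and 8.36 RPKM in the shHepaCAM libraries, against 7.65, 6.64 and 7.05 RPKM in the shControl libraries (log2 change 0.24, adjusted p = 0.118 in limma). Genes of mitochondrial RNA processing gave 0 of 20, regulators of mitochondrial biogenesis 0 of 14 and genes of fusion, fission and mitophagy 0 of 13.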

How the data were processed

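Total RNA of mouse hippocampus was sequenced in 6 libraries, and the titles gave each library's group and number. The deposited files hold RPKM per Ensembl gene, as the authors made them. The tools named are TopHat2 2.0.12 and Bowtie2 2.0.6 and the build is mm39, per the submitters' processing notes. Neither the counting program nor its annotation or strand mode is given in the sources used here. That the values are RPKM was read from the values themselves, which come out as whole reads.

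Names, classes and exon lengths came from GENCODE M21, on another build, and gave symbols for 29805 of 29872 identifiers. Reads were recovered from the steps in RPKM: with these lengths, 91.9% of genes gave whole numbers (tolerance 0.01 read) in all libraries, and all 106 members were resolved. No library was counted as a repeat, since even the closest pair differed beyond sampling noise (chi-square over degrees of freedom 4.09).

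Tests were limma 3.58.1 (R 4.3.3) with a mean-variance trend on log2(RPKM + 1), a scale that understates changes of low genes, with Benjamini-Hochberg adjustment over 13864 genes and a threshold of 0.05. The design had allowed for counts, and its branch for normalized values was used. The script was tested on simulated data. Copies were sought with BLAST+ 2.17.0 among GENCODE transcripts (matches of 100 bases or more), and motifs in RefSeq promoters. Figures used matplotlib 3.10.9 in Python 3.11.15. Alternatives were other scalings, TPM, filters, pseudocount, weights, no trend, a replicate block, a GC and length correction, limma-voom on recovered reads, and leaving out libraries.

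The rule for naming members took all mitochondrial genes, Sdha to Sdhd, Cyc1, the called or 3 lowest-p genes and the highest gene of each complex, and isoform groups. It also took 4 uncalled genes not described above. Their log2 changes were -0.23 for Cox7b, without overlap between groups, -0.06 for Uqcr10, -0.12 for Ndufaf1 and -0.08 for Ndufaf7. For the lists of other pathway genes, the called genes were named, and only some of the lowest-p genes of lists without calls. Cell type markers were mostly given as sums. The members and lists were chosen with earlier results of these data known, so counts over them are descriptions.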

Additional observations from a re-analysis of the deposited data

How the results depend on the processing

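Over 20 alternatives, all genes called numbered 842 in the analysis as reported, 169 without a filter, 157 with the replicate block, 124 with that block and a GC and length correction, 104 without shHepaCAM replicate 3 and shControl replicate 1 (the libraries poor in choroid plexus RNA), and 98 to 867 when 1 library was left out. Nuclear members called numbered 1 as reported, 2 with quantile normalization (Cox6b1 and Ndufa10) and 4 with the GC and length correction (Cox6b1, Ndufa1, Ndufa10 and Ndufb6). They numbered 0 without a filter, without both of those libraries, with the replicate block and with the block and correction, and 0 to 1 when 1 library was left out. Mitochondrial members called numbered 0 as reported, 1 with quantile normalization (mt-Nd4) and 1 with limma-voom (mt-Nd5). Quantile normalization gives the highest genes of every library equal values. With it the mitochondrial median was 0, its difference from the nuclear median was 0.11, and mt-Nd4 turned to a log2 change of 0.22 (adjusted p = 0.0162 in limma). That difference of medians was -0.19 to -0.049 when 1 library was left out. The nuclear median was -0.16 with the GC and length correction, with or without the replicate block. Hepacam stayed lower throughout, but its adjusted p in limma was 0.0526 without shControl replicate 3 and 0.0695 without both of those libraries (log2 change -0.54), and its log2 change ran between -0.68 and -0.58 when 1 library was left out. Samples with the same replicate number did not deviate together (r = -0.21, 0.02 and -0.14 for numbers 1, 2 and 3), so the numbers were not taken as pairs. The cause of these movements was not tested. With 3 libraries a group, and under 100 reads per library for mt-Nd3, mt-Nd4l and mt-Atp8, small differences in these genes were not detectable.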
